A study of Mus musculus with 6 samples.

Results

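The 8 genes described here mark cell groups of the thalamus. They were chosen by name and not by a measured threshold, with earlier results of these data known. They came from the 32531 gene rows of each count table. They were Calb1, Calb2 and Pvalb, which encode the calcium buffers calbindin, calretinin and parvalbumin; Necab1, Necab2 and Necab3, which encode neuronal calcium-binding proteins with an N-terminal EF hand; and Tnnt1 and Synpo2, which encode slow skeletal muscle troponin T and the Z-disc protein synaptopodin 2. All 8 of 8 passed the filter on low counts, and 16496 genes were tested in all. The 3 immunopurified (IP) libraries and the 3 Input libraries came from dissected thalamus of untreated adult control mice of the Slc17a6-EGFP/Rpl10a TRAP line JX883. All libraries therefore carry the same transgene and no treatment or mutation separates the groups. In TRAP (translating ribosome affinity purification) an EGFP-tagged ribosomal protein, here Rpl10a, is pulled down with anti-EGFP antibodies together with the RNA on the tagged ribosomes. The line is named for Slc17a6, which encodes the vesicular glutamate transporter VGLUT2 of thalamic relay neurons. The labels give neither the number of animals nor whether tissue was pooled, and p-values therefore describe only how much the libraries vary, part of which may be technical. The labels call the molecule of the Input libraries ribosome-bound as well.

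Relay neurons of the thalamus are glutamatergic and have been described as a core class, with focused projections to middle layers of the cortex, and a calbindin-rich matrix class with diffuse projections to upper layers. Across mouse thalamic nuclei, Tnnt1, Necab1 and Calb2 have been used as markers of successive nuclear groups that run from sensory relay nuclei, through higher-order nuclei, to midline and intralaminar nuclei. Neurons of the thalamic reticular nucleus are GABAergic, lack VGLUT2 and in the mouse are the main parvalbumin cells of the thalamus. EF hands are helix-loop-helix folds whose acidic loop holds a calcium ion.

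The sequences that tell the closest relatives apart are shown first, since calbindin and calretinin, and the Necab genes, are paralogs whose reads could in principle be mixed. In the longest open reading frames of the GENCODE M21 transcripts, the loop pattern of the EF hand was found 4 times in Calb1 (261 residues), 5 times in Calb2 (271 residues), 2 times in Pvalb (110 residues), 1 time in Necab1, 2 times in Necab2 and 1 time in Necab3. The lines that follow give the coding strand, 5′ to 3′, of the first loop of Calb2 and of Calb1, with capitals at the bases that differ between the pair, and of the first loop of each Necab gene, with capitals wherever the 3 are not all alike.
Calb2 loop: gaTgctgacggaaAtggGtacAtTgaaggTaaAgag
Calb1 loop: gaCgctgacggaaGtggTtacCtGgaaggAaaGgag
Necab1 loop: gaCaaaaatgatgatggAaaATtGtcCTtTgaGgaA
Necab2 loop: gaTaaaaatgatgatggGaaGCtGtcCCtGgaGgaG
Necab3 loop: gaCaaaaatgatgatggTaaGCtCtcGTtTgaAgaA

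The Calb2 and Calb1 loops shared 29 of 36 bases, and the first loops of the 3 Necab genes shared 26 of 36. Over whole coding sequences the aligned bases were 68.4% identical between Calb2 and Calb1. Between the Necab genes this identity ranged from 62.3% to 65.7%. The longest exact run that any transcript of one gene shared with any transcript of the other was 12 bases for Calb2 and Calb1. For the Necab pairs it was at most 23 bases, between Necab3 and Necab1. Genes on the opposite strand overlap exons of Necab1 by 410 bases (Gm11837) and of Necab3 by 71 bases (1700003F12Rik), and as the strand setting of the counting is not given in the sources used here, reads in those stretches cannot be assigned with certainty.

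Depth was similar throughout, with 52068141 to 54421395 gene reads in the IP libraries and 44081149 to 47340321 in the Input libraries. Each member had between 873 and 48179 reads in a library, far above the floor of 3 reads, which corresponded to 0.0552 to 0.0681 CPM (reads relative to library size, here with TMM factors). Slc17a6 itself had 6489, 2193 and 2200.03 CPM in IP replicates 1, 2 and 3, against 3153, 875 and 477 CPM in Input in the same order, and was higher in IP within each replicate number. Its difference of log2 1.27 ± 0.68 (SE) missed the threshold (edgeR adjusted p = 0.206). The replicate number as a block gave 1.52 ± 0.19, which passed (edgeR adjusted p = 0.000246). Without the block, leaving out 1 library gave values from 0.56 (without IP replicate 1, edgeR adjusted p = 0.589) to 2.43 (without Input replicate 1, edgeR adjusted p = 0.0161), and the second of these was the 1 of 6 such fits that passed. It was 0.86 without Input replicate 3 (edgeR adjusted p = 0.366). Input replicate 3 stood apart from the other Input libraries: relay neuron markers stood there at a median of 0.498 times, striatal projection neuron markers at 4.11 times, and markers of cortical and hippocampal excitatory neurons at 2.87 times the mean of Input replicates 1 and 2. Of 11 relay neuron markers, Slc17a6 among them, 3 rose and 0 fell without the block. Of all tested genes, 9.6% rose and 15.6% fell. Markers of oligodendrocytes fell in 5 of 5 genes, of microglia in 4 of 5 and of endothelium in 3 of 5. Those of striatal projection neurons fell in 1 of 11 and of hypothalamic neurons in 1 of 9 tested. Among 10 tested markers of cortical and hippocampal excitatory neurons, 1 rose and 0 fell.

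Of the 8 genes, 4 rose in IP relative to Input (Calb2, Necab2, Tnnt1 and Calb1), against 9.6% of all tested genes, and the other 4 missed the threshold (an adjusted p under 0.05 over all tested genes, from the quasi-likelihood test of edgeR). No member passed as lower, where 15.6% of tested genes did; at an unadjusted edgeR p under 0.05 there were 6 higher and 1 lower (Pvalb), against 16.1% and 22% of all tested genes. DESeq2 and limma-voom each called 4 members higher and 0 lower; of all tested genes, 12.7% were higher and 19.8% lower with DESeq2, while limma-voom had 10.6% higher and 16.5% lower. The fits above leave out the pairing of same-numbered libraries, which a replicate block takes into account. With the replicate number as a block, Necab1 and Necab3 also rose, which makes 6 higher against 15.9% of all tested genes. Pvalb then fell, the 1 lower gene against 19.2%. The median log2 fold change of the 8 genes was 0.78, and that of all tested genes was -0.04. As the members were chosen with earlier results of these data known, their counts beside the shares are a description. In 5 members every IP library lay above every Input library, as in 19.9% of tested genes, and in 1 member (Pvalb) every IP library lay below, as in 25% of tested genes. The sign was the same within all 3 same-numbered pairs of libraries for 7 of the 8 genes, all but Synpo2. The matching share of all tested genes was not computed, so this count is a description. RNA from fewer cells of a type and less RNA from each cell cannot be told apart in these bulk libraries.

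**Figure D1:**
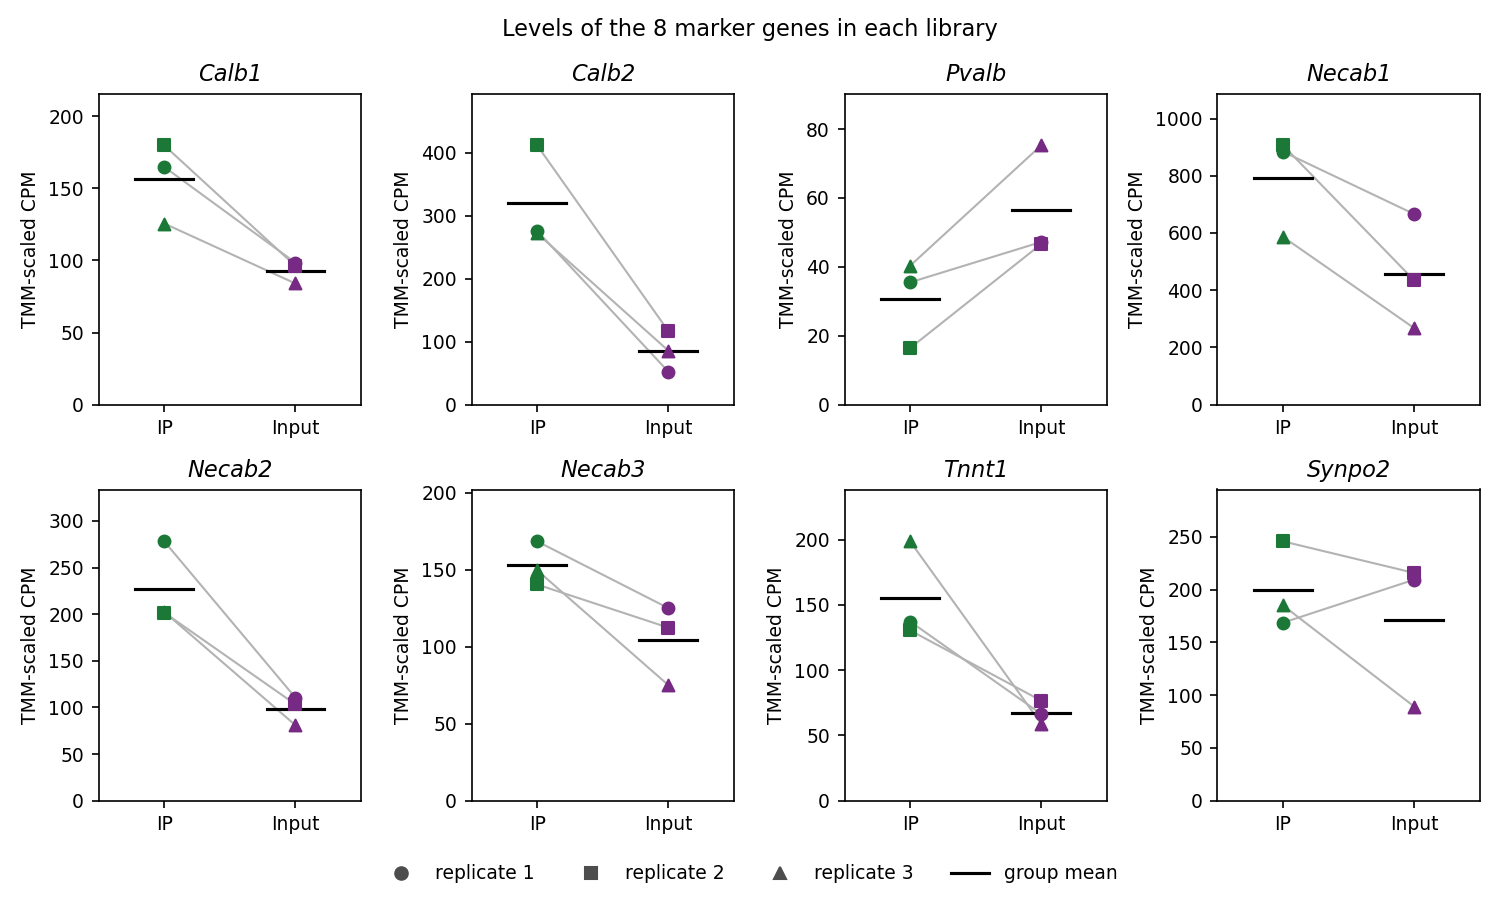
TMM-scaled CPM (vertical axis, from 0) of each of the 8 genes in the 3 IP libraries (left of each panel) and the 3 Input libraries (right), with grey lines between libraries of the same replicate number and black bars at group means. Calb2 shows the largest fold difference, with IP libraries from 272 to 412 CPM and Input libraries from 52.5 to 117 CPM, while Pvalb runs the other way.

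Calretinin had the largest rise of the 4 members that passed. Calb2 (chr8:110137502-110168210, minus strand, GENCODE M21 on GRCm38, as for the other members) had 276, 412 and 272 CPM in IP replicates 1, 2 and 3, against 52.5, 117 and 85.8 CPM in Input in the same order. Every IP library lay well above every Input library. Means were 320.1 ± 79.6 CPM for IP against 85.1 ± 32.3 CPM for Input (SD, n = 3 each), which is 1.91 ± 0.31 as a log2 fold change (SE), or 3.76-fold (edgeR adjusted p = 0.00389; 2.18e-05 with the replicate block). This log2 fold change stood at the 99.1th percentile of all tested genes. Within replicates 1, 2 and 3 the log2 ratio of IP to Input was 2.39, 1.82 and 1.67. Its call held in all 18 alternatives that were run, with log2 fold changes from 1.66 to 2.21. Calb2 is known in the thalamus and also in the neighbouring habenula. Of 9 habenula markers 5 fell, and their summed level was 40.5 to 48.5 CPM in IP and 118 to 338 CPM in Input; Tac2, a habenula neuropeptide gene, had 0.708 ± 0.439 CPM for IP against 24.5 ± 19.2 CPM for Input (SD, n = 3 each). No habenula marker was at 0 in IP, and the part of habenula RNA in the Calb2 levels was not tested.

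Calbindin rose less. Calb1 (chr4:15881264-15908064, plus strand), the usual marker of the matrix class, had 165, 179.8 and 126 CPM in IP replicates 1, 2 and 3, against 98.5, 96.3 and 84.0 CPM in Input in the same order. The groups did not overlap, and the Input libraries varied by only 8.36% (coefficient of variation) against 17.9% in IP. Means were 157 ± 28.0 CPM for IP against 92.9 ± 7.77 CPM for Input (SD, n = 3 each), which is 0.75 ± 0.19 as a log2 fold change (SE; edgeR adjusted p = 0.0222; 0.00342 with the replicate block). The call ended without IP replicate 1 (log2 0.73, edgeR adjusted p = 0.0506), without IP replicate 2 (0.65, 0.0926) or without Input replicate 2 (0.78, 0.0683), and held without each of the other 3 libraries. Calb1 is also expressed in striatal and hippocampal neurons. In Input replicate 3, the library with high striatal and cortical markers, Calb1 was at its lowest of the 3 Input libraries. Relay neuron markers were low in that library too, so its Calb1 level cannot separate these sources. The part of striatal or hippocampal RNA in the Calb1 levels was not tested.

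Relative to calbindin, calretinin was higher in IP than in Input. The log2 ratio of Calb2 to Calb1 was 0.74, 1.20 and 1.12 in IP replicates 1, 2 and 3, against -0.91, 0.28 and 0.03 in Input replicates 1, 2 and 3. The difference of 1.22 had p = 0.1 in an exact two-sided permutation test, the smallest p that 3 libraries against 3 allow, and an adjusted p of 0.3 over the 6 member pairs compared. It was positive within each of the 3 replicate numbers, at 1.65, 0.91 and 1.09.

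The Necab genes encode EF-hand proteins that bind calcium and, in the case of Necab2, are known to interact with G protein-coupled receptors. Necab2 (chr8:119446719-119472640, plus strand) had the largest rise of them: it had 278, 202 and 202 CPM in IP replicates 1, 2 and 3, against 110.5, 103 and 81.0 CPM in Input in the same order. All IP libraries lay well above all Input libraries. Means were 227 ± 43.9 CPM for IP against 98.3 ± 15.4 CPM for Input (SD, n = 3 each), which is 1.21 ± 0.21 as a log2 fold change (SE; edgeR adjusted p = 0.00503; 0.000203 with the replicate block). The call held in each of the 6 fits without 1 library and ended only without both libraries of replicate 2 (log2 1.32, edgeR adjusted p = 0.0684).

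Necab1 (chr4:14952245-15149794, minus strand) had the most reads of the 8 members. It had 884, 906 and 586 CPM in IP replicates 1, 2 and 3, against 666, 434 and 267 CPM in Input in the same order. The groups overlapped, since Input replicate 1 exceeded IP replicate 3, but IP was higher within every replicate number, by log2 0.41, 1.06 and 1.13. Means were 792 ± 179 CPM for IP against 456 ± 200.2 CPM for Input (SD, n = 3 each), and the difference of log2 0.80 ± 0.32 (SE) missed the threshold (edgeR adjusted p = 0.105). The replicate block gave 0.87 ± 0.16, which passed (edgeR adjusted p = 0.00218). Leaving out Input replicate 1 also gave a rise that passed (log2 1.18, edgeR adjusted p = 0.0213). The order of the Input libraries for Necab1, highest in replicate 1 and lowest in replicate 3, was also that of Slc17a6 and of the summed relay neuron markers (8109, 4847 and 2677 CPM). Without Input replicate 3, where Necab1 was 0.486 times the mean of Input replicates 1 and 2, the log2 fold change was 0.54 (edgeR adjusted p = 0.189) and did not pass.

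Necab3 (chr2:154544399-154558890, minus strand) had the smallest log2 fold change of the Necab genes. It had 168, 140.3 and 149.5 CPM in IP replicates 1, 2 and 3, against 125, 112 and 75.0 CPM in Input in the same order. The groups did not overlap, but the lowest IP and the highest Input library were close. Means were 153 ± 14.3 CPM for IP against 104 ± 26.0 CPM for Input (SD, n = 3 each), and the difference of log2 0.55 ± 0.22 (SE) missed the threshold (edgeR adjusted p = 0.101). The replicate block gave 0.58 ± 0.17, which passed (edgeR adjusted p = 0.0218). No fit without 1 library passed, with edgeR adjusted p from 0.0574 to 0.195, and without Input replicate 3 the log2 fold change was 0.38.

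**Figure D2:**
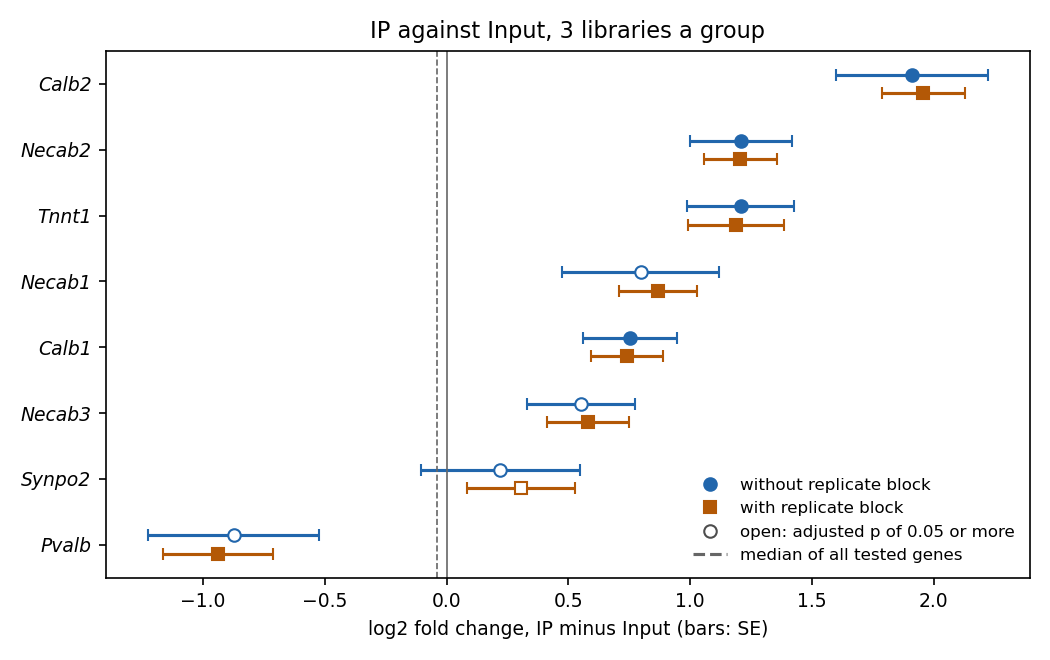
Log2 fold change of IP minus Input (horizontal axis) with its SE for each of the 8 genes, from the fit without the replicate block (blue circles) and with it (orange squares); open symbols have an adjusted p of 0.05 or more and the dashed line is the median of all tested genes (-0.04). Point estimates barely move with the block, while its SE values are smaller for all 8 genes, and Necab1, Necab3 and Pvalb pass only with it.

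The members named for striated muscle proteins were both present. Tnnt1 (chr7:4504570-4516382, minus strand), which in slow muscle anchors the troponin complex to tropomyosin, had 137, 131 and 199 CPM in IP replicates 1, 2 and 3, against 66.4, 76.6 and 58.9 CPM in Input in the same order. Every IP library lay above every Input library. Means were 156 ± 37.6 CPM for IP against 67.3 ± 8.90 CPM for Input (SD, n = 3 each), which is 1.21 ± 0.22 as a log2 fold change (SE), or 2.31-fold (edgeR adjusted p = 0.00593; 0.00118 with the replicate block). As with Necab2, its call held without each single library and ended only without both libraries of replicate 2 (log2 1.42, edgeR adjusted p = 0.0561).

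Synpo2 (chr3:123076519-123236149, minus strand), an actin-bundling protein of the Z-disc also known as myopodin, had 169, 246 and 185 CPM in IP replicates 1, 2 and 3, against 209, 216 and 89.2 CPM in Input in the same order. The groups overlapped, and Input replicate 3 was 0.419 times the mean of Input replicates 1 and 2. Means were 199.8 ± 40.6 CPM for IP against 171 ± 71.3 CPM for Input (SD, n = 3 each), and the difference of log2 0.22 ± 0.33 (SE) missed the threshold (edgeR adjusted p = 0.667). It was -0.08 without Input replicate 3 (edgeR adjusted p = 0.824) and -0.03 without both libraries of replicate 3, so no direction can be given. Within replicates 1, 2 and 3 the log2 ratios were -0.31, 0.19 and 1.05.

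Genes of skeletal muscle were low beside them. The 8 muscle genes, Ckm (muscle creatine kinase) and fast myosins among them, summed to 11.4 to 19.1 CPM in IP and 6.27 to 14.2 CPM in Input. None of the 4 that were tested passed with edgeR, with or without the replicate block. The most abundant of them was Atp2a1, the calcium pump of fast muscle, with 12.5, 4.36 and 6.77 CPM in IP replicates 1, 2 and 3, against 10.2, 6.47 and 2.25 CPM in Input in the same order. Acta1, skeletal muscle actin, came next, with 3.77, 5.08 and 3.83 CPM in IP replicates 1, 2 and 3, against 1.70, 2.35 and 0.204 CPM in Input in the same order. Its IP libraries all lay above its Input libraries, as those of Tnnt1 did, and the difference of log2 1.57 missed the threshold (edgeR adjusted p = 0.170). Summed over the libraries of a group, Acta1 had 664 reads in IP and 202 in Input and Ckm had 34 in IP and 23 in Input, while Tnnt1 had 6772 to 10806 reads in each IP library and 2593 to 3743 in each Input library. The part of muscle RNA in the Tnnt1 level was not tested. The troponin C and troponin I genes of slow muscle, named after their values were seen, went opposite ways at low levels. Tnnc1, slow and cardiac troponin C, had 6.61 ± 0.988 CPM for IP against 1.30 ± 0.682 CPM for Input (SD, n = 3 each) and rose by log2 2.34 ± 0.50 (SE; edgeR adjusted p = 0.0113). Tnni1, slow troponin I, had 0.213 ± 0.127 CPM for IP against 6.24 ± 5.15 CPM for Input (SD, n = 3 each) and fell by 4.86 ± 0.84 on the log2 scale (edgeR adjusted p = 0.00495).

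Parvalbumin was the 1 member with lower levels in IP. Pvalb (chr15:78191114-78206400, minus strand) had 35.5, 16.4 and 40.3 CPM in IP replicates 1, 2 and 3, against 47.2, 46.6 and 75.3 CPM in Input in the same order. Every IP library lay below every Input library, and IP replicate 2 was the lowest of all. Means were 30.7 ± 12.6 CPM for IP against 56.4 ± 16.4 CPM for Input (SD, n = 3 each), and the difference of log2 -0.87 ± 0.35 (SE) missed the threshold (edgeR adjusted p = 0.102). The replicate block gave -0.94 ± 0.23, which passed (edgeR adjusted p = 0.00868). No fit without 1 library passed, with log2 fold changes from -1.11 to -0.57, and without Input replicate 3 it was -0.60.

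Most other markers of reticular and further GABAergic neurons fell. Of 12 such genes, which did not include Pvalb, 9 fell (11 under the replicate block); the median was log2 -2.88, and their summed level was 106 to 348 CPM in IP and 1096 to 1803 CPM in Input. Gad2, a GABA-synthesising enzyme, had 48.0, 106 and 119 CPM in IP replicates 1, 2 and 3, against 569, 687 and 853 CPM in Input in the same order. As a description, the log2 ratio of Pvalb to Gad2 averaged -1.56 ± 1.13 in IP and -3.66 ± 0.20 in Input (SD, n = 3 each), a difference of 2.10. This ratio was chosen after both genes' values were seen, so it carries no test. In IP it ranged from -2.69 to -0.44. Input replicate 3 had the highest Pvalb and the highest GABAergic sum, and without it the difference in the Pvalb to Gad2 ratio was 2.17, within a range of 1.53 (without IP replicate 1) to 2.66 (without IP replicate 2).

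Relative to Calb1, Pvalb was lower in IP. The log2 ratio of Pvalb to Calb1 was -2.22, -3.45 and -1.64 in IP replicates 1, 2 and 3, against -1.06, -1.05 and -0.16 in Input replicates 1, 2 and 3. The groups did not overlap. The difference of -1.68 had p = 0.1 (adjusted p = 0.3 over the 6 pairs) in the exact permutation test, which can go no lower.

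Among the 3 genes that have been used to mark successive nuclear groups, no ratio was shown to differ between IP and Input. The log2 ratio of Tnnt1 to Necab1 was -2.69, -2.80 and -1.56 in IP replicates 1, 2 and 3, against -3.33, -2.50 and -2.18 in Input replicates 1, 2 and 3 (difference 0.32, exact permutation p = 0.6, adjusted p = 0.6), and the difference changed sign between replicate numbers. For Tnnt1 to Calb2 the ratios were -1.01, -1.66 and -0.45 in IP replicates 1, 2 and 3, against 0.34, -0.61 and -0.54 in Input replicates 1, 2 and 3 (difference -0.77, exact permutation p = 0.3, adjusted p = 0.36). Necab1 to Calb2 gave 1.68, 1.14 and 1.11 in IP replicates 1, 2 and 3, against 3.67, 1.89 and 1.64 in Input replicates 1, 2 and 3 (difference -1.09, exact permutation p = 0.2, adjusted p = 0.36), and this ratio was lower in IP within each replicate number. Input replicate 1 stood out in all 3 of these ratios, and without it the differences were -0.46 for Necab1 to Calb2, -0.46 for Tnnt1 to Calb2 and -0.00400 for Tnnt1 to Necab1. The Tnnt1 to Calb2 difference was likewise -0.46 without IP replicate 2. For Synpo2 to Calb1 the difference was -0.43 (exact permutation p = 0.3, adjusted p = 0.36). It ran from -0.78 (without Input replicate 3) to -0.24 (without Input replicate 2), was -0.28 without IP replicate 1 or without Input replicate 1, and within replicates 1, 2 and 3 it was -1.06, -0.71 and 0.47.

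**Figure D3:**
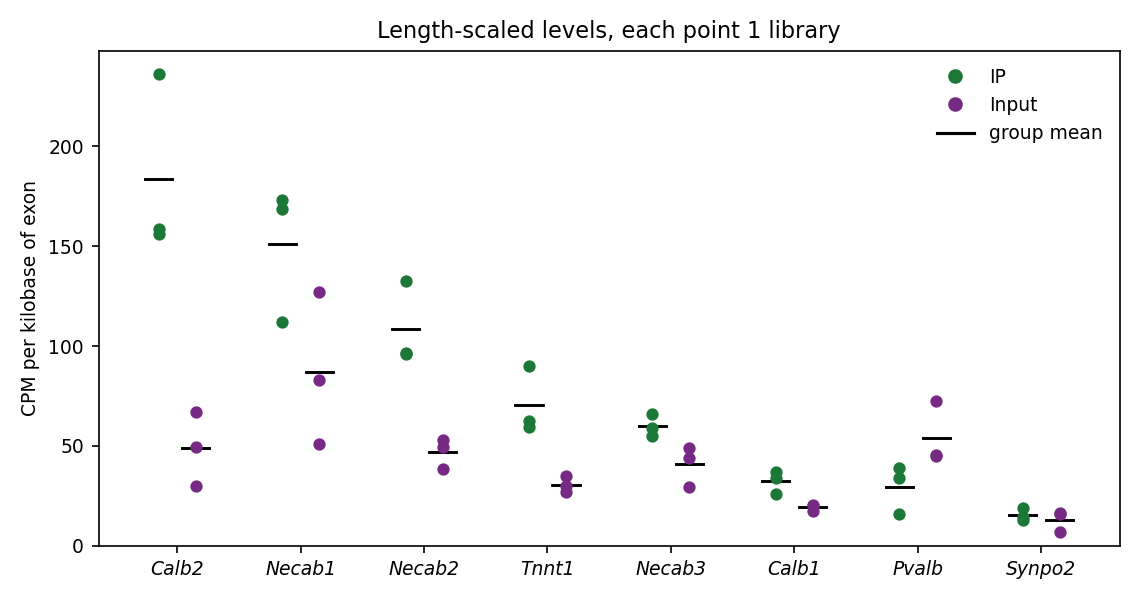
CPM per kilobase of exon (vertical axis, from 0) of the 8 genes, ordered by their IP mean, with 1 point per library, IP to the left of Input, and black bars at group means. Calb2 leads in IP at 184 and Necab1 leads in Input at 87.1, and Pvalb has the second-highest mean in Input but the second-lowest in IP.

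Scaled by exon length, so that genes can be set against each other, the order of levels differed between the groups. In IP the order by mean CPM per kilobase was Calb2 (184 ± 45.7), Necab1 (151 ± 34.1), Necab2 (108 ± 20.9), Tnnt1 (70.6 ± 17.0), Necab3 (59.9 ± 5.60), Calb1 (32.4 ± 5.78), Pvalb (29.5 ± 12.1) and Synpo2 (15.3 ± 3.10; SD, n = 3 each). Of the neighbours in that order, Necab2 stood above Tnnt1, and Necab3 above Calb1, without overlap between libraries; the other neighbours overlapped. In Input the order was Necab1 (87.1 ± 38.2), Pvalb (54.2 ± 15.7), Calb2 (48.8 ± 18.5), Necab2 (46.9 ± 7.35), Necab3 (40.9 ± 10.2), Tnnt1 (30.5 ± 4.04), Calb1 (19.2 ± 1.60) and Synpo2 (13.1 ± 5.45; SD, n = 3 each). There, only Tnnt1 over Calb1 and Calb1 over Synpo2 were separated without overlap. Lengths are unions of GENCODE M21 exons, which may be longer than the transcripts present, and the level of a gene with unused exons would then be understated.

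The promoters of Tnnt1 and Necab2, which rose with nearly equal fold changes, and of Pvalb, which lay lower in IP, are printed as examples of members on either side. RefSeq windows matched 5 of the 8 members; those of Calb1, Calb2 and Necab1 are not shown. The windows lie on GRCm38.p6 and run from 250 bases before to 50 bases after the annotated start, so that base 251 is the start and positions count from it, 5′ to 3′ on the gene's strand: chr7:4515926-4516225 (minus strand) for Tnnt1, chr8:119446469-119446768 (plus strand) for Necab2 and chr15:78206351-78206650 (minus strand) for Pvalb. Capitals mark exact matches, on either strand, of the TATA box letters TATAAA and the GC box letters GGGCGG.
Tnnt1 promoter: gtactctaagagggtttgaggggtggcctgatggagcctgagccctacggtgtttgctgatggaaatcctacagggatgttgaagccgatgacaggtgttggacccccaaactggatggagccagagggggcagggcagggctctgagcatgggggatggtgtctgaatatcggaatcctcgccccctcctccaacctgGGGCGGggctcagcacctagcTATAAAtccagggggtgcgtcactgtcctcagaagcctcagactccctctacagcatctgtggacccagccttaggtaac
Necab2 promoter: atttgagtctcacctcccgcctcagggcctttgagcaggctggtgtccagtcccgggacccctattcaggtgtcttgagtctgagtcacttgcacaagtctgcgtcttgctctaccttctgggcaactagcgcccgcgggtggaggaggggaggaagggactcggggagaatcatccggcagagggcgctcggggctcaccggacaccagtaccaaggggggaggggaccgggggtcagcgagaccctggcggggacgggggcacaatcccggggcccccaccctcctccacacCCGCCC
Pvalb promoter: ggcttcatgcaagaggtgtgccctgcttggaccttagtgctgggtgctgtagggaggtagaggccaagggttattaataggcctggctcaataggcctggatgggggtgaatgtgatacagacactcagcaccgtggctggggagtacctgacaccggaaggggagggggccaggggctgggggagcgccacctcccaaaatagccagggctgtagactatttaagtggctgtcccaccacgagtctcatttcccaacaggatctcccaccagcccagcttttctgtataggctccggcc

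The Tnnt1 window held 1 TATA box match at -30 from the start and 1 GC box match at -51. The Necab2 window held 1 GC box match starting 44 bases after the start, on the other strand, and the Pvalb window shown, 1 of 2 for that gene, held no match of either. Among all 32851 RefSeq windows of this length, 13.6% held TATAAA and 35.7% held GGGCGG. The E-box CANNTG, present in 72.3% of all windows, was found 2 times each in Tnnt1 and Necab2 and not in the Pvalb window shown, while the other Pvalb window held 2. CATTCC (14.7% of all windows) and CCAAT (37.4%) were in none of the 3 printed windows. GC content was 58.3% in the Tnnt1 and Pvalb windows and 66.7% in that of Necab2. These matches describe the letters only.

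Other EF-hand genes were counted from a list, chosen like the other gene lists with earlier results of these data known. Of 44 listed genes 42 were tested, and 16 rose (38.1%, against 9.6% of all tested genes) and 7 fell (16.7%, against 15.6%), with 19 and 9 under the replicate block; the median was log2 0.61 against -0.04 over all tested genes. Among the 5 most abundant were Vsnl1, Calm2, Calm3 and Ppp3r1. Calm2, a calmodulin gene, had 2434 ± 129 CPM for IP against 896 ± 71.0 CPM for Input (SD, n = 3 each) and rose by log2 1.44 ± 0.15 (SE; edgeR adjusted p = 0.000606). Calm3, which encodes the same protein, rose by log2 0.92, and Vsnl1, the neuronal calcium sensor visinin-like 1, rose by 0.79. Ppp3r1, the regulatory subunit of calcineurin, stood at log2 0.37 and missed the threshold (edgeR adjusted p = 0.249). Among the 7 that fell, named after their values were seen, was S100b, an astrocyte calcium-binding protein, at 8.35 ± 4.62 CPM for IP against 94.8 ± 12.9 CPM for Input (SD, n = 3 each). Astrocyte markers fell in 4 of 5 genes, and their summed level was 11.9 to 14.2 CPM in IP and 189 to 353 CPM in Input. A list of 20 general neuronal genes had a median log2 fold change of 0.52 (6 rose and 1 fell), which stands beside the member values of 1.91 for Calb2, 1.21 for Necab2 and Tnnt1, and 0.75 for Calb1 as a description only.

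Other sarcomere and Z-disc genes had shares near those of all tested genes. Of 49 listed genes 34 were tested, and 2 rose (5.88%, against 9.6% of all tested genes) and 6 fell (17.6%, against 15.6%), with 2 and 8 under the replicate block; the median was log2 -0.37 against -0.04 over all tested genes. Of the 5 most abundant, Tpm1, a tropomyosin gene with neuronal isoforms, had 483 ± 46.4 CPM for IP against 271 ± 36.3 CPM for Input (SD, n = 3 each) and rose by log2 0.83 ± 0.18 (SE; edgeR adjusted p = 0.0107). Tmod2, the neuronal tropomodulin, was the most abundant, at 1099 ± 112 CPM for IP against 1177 ± 49.9 CPM for Input (SD, n = 3 each), a difference of log2 -0.10 that missed the threshold (edgeR adjusted p = 0.686). Tpm3, Nexn and Pdlim5 had log2 fold changes of 0.49, -0.40 and -0.40, none of which passed. Synpo, the paralog of Synpo2 found in dendritic spines, had 20.3 ± 3.01 CPM for IP against 25.8 ± 17.0 CPM for Input (SD, n = 3 each).

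The genes whose levels followed each member most closely over the 6 libraries were looked up among 10103 protein-coding genes that averaged 5 CPM or more, by Pearson's r of log2(CPM + 1). All 6 libraries share the IP and Input grouping, which alone can give a high r, so these values are a description. Calb2 was most like Snx12 (r = 0.999) and Azin1 (0.996), Necab2 like Ywhab and Caly (0.999 each), and Tnnt1 like Bok (0.998) and Klhdc8a (0.995). Calb1 was most like Trim45 and Syn2 (0.991 each), Necab1 like Nxph1 (0.993) and Larp4b (0.991), and Necab3 like Slc25a24 and Mafk (0.996 each). Synpo2 was most like Zfhx3 (0.997) and Cacng4 (0.993), and Pvalb like Mbd4 (0.992) and Cep85 (0.988).

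**Figure D4:**
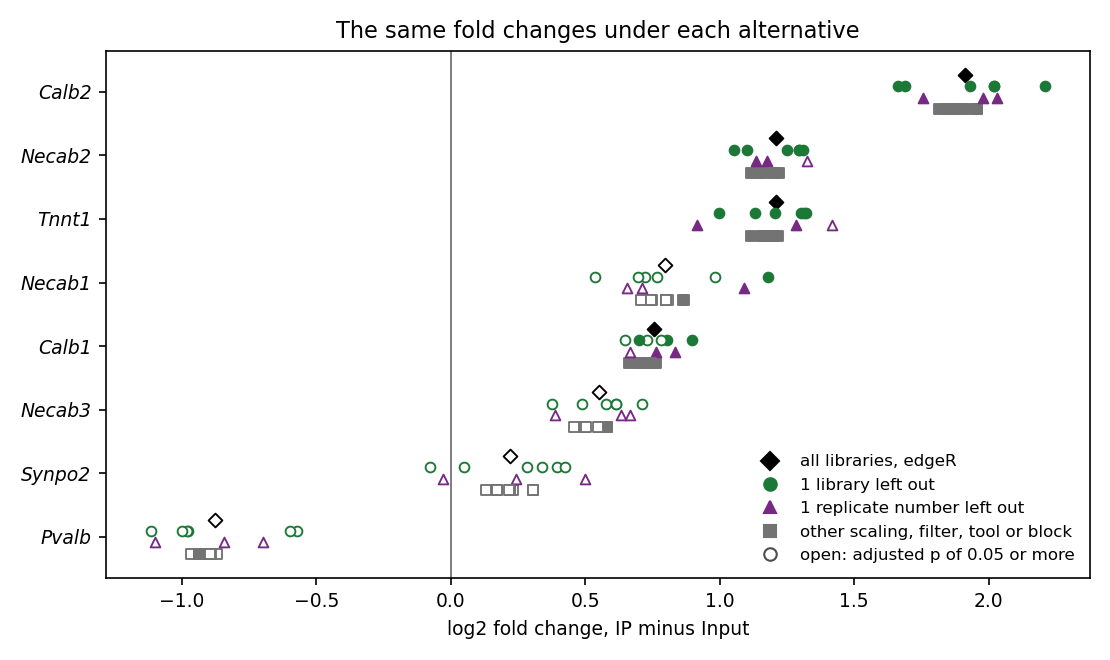
Log2 fold change of IP minus Input (horizontal axis) of each gene with all libraries (black diamonds), without 1 library (green circles), without both libraries of 1 replicate number (purple triangles) and under other scalings, filters, tools or the replicate block (grey squares); filled symbols have an adjusted p under 0.05. Calb2 stays filled throughout, from 1.66 to 2.21, Calb1 opens in some fits, and Synpo2 falls on both sides of 0.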

How the data were processed

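TRAP-seq gene tables of 3 IP and 3 Input libraries were analysed. The authors deposited 1 table of raw read counts per gene for each library, and the submitters' processing notes name STAR 2.0.0e, HTSeq and the mouse build mm10. Which gene annotation, strand setting and overlap mode the authors used is not stated. Rows with no gene name and the HTSeq summary rows were left out of library sizes. Reads outside any feature averaged 7.76% of the IP libraries' tallies and 16.2% of the Input libraries', and ambiguous ones 1.79% and 9.34%. Alignments that were not unique averaged 40.8% in IP and 25.8% in Input.

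Counts were filtered with filterByExpr, scaled by TMM and tested with edgeR 4.0.16 (R 4.3.3; quasi-likelihood, no block), with Benjamini-Hochberg adjustment over all 16496 tested genes and a threshold of 0.05; the standard error is the absolute log2 fold change divided by the root of F. DESeq2 1.42.0, limma 3.58.1 (voom), other scalings, other filters and leaving out libraries were alternatives. Same-numbered IP and Input libraries, numbered in the titles, deviated together from their group means. The r across genes was 0.456, 0.215 and 0.246 for replicates 1, 2 and 3, each over 0.1. The numbers were therefore taken to pair the samples, and replicate number and lane cannot be told apart. The main fit does not use this pairing, so the fit with the replicate block is given beside it. No 2 libraries of a group agreed within sampling noise. Ratios between members were compared by exact two-sided permutation tests over all 6 libraries, which leave out this pairing as well. Of the gene rows, 23161 matched GENCODE M21 by symbol, all 8 members among them. Sequences and alignments were handled with Biopython 1.88.

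The members and gene lists were chosen with earlier results of these data known. Besides the 8 members and Slc17a6, the rule names the 5 most abundant genes of each list of related genes, the 2 most abundant GABAergic and skeletal muscle markers, and the 2 genes most like each member, of which some are not reported here; Tnnc1, Tnni1, S100b, Synpo, Tac2 and Ckm were named after their values were seen.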

Additional observations from a re-analysis of the deposited data

How the results depend on the processing

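Over all tested genes, 1583 rose and 2566 fell, 2624 and 3163 with the replicate block, and 2090 and 3263 with DESeq2. Leaving out libraries gave 83 to 1640 higher and 651 to 2598 lower genes. The lowest counts, 83 and 651, came without both libraries of replicate 2. Higher genes also numbered 731 without IP replicate 2, 808 without IP replicate 3, 810 without Input replicate 2 and 972 without replicate 3. Lower genes numbered 1634 without IP replicate 2. All of these fits had fewer libraries, and the cause of the lower counts was not tested. Without replicate 2, 1 of the 8 members (Calb2) still passed as higher; leaving out libraries gave 1 to 5 higher members and 0 lower. With the replicate block 1 member was lower (Pvalb). The block changed the call of Pvalb, Necab1 and Necab3 and of no other member. No scaling, filter or other tool changed the call of any member. Synpo2 changed sign: without libraries or replicates its log2 fold change ranged from -0.078 (without Input replicate 3) to 0.50 (without replicate 1), and it was -0.027 without replicate 3. The Tnnt1 to Necab1 log2 ratio difference ranged from -0.070 (without IP replicate 3) to 0.57, and was -0.00400 without Input replicate 1. With 3 libraries a group, a single exact test cannot go below p = 0.1.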
